A study of Mus musculus with 12 samples.

Results

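Bach2 and 9 other genes known from undifferentiated T and B cells were described in RNA of mouse T_reg_ cell samples: Bach2, Foxp1, Sox4, Tcf3, Id3, Lef1, Tnfrsf19, Lgr5, Tcf7 and Satb1. The genes were chosen by name, as those of undifferentiated lymphocytes, with their levels in these libraries already known, so their levels and differences are a description, no p-value is printed for them, and nothing is read from their counts of calls. All 10 were found among the 14259 genes of the count table, and all 10 passed the filter on low counts that left 13782 genes. The 4 groups of 3 libraries were, as their labels name them, tumor Tbet-KO, tumor ST2-KO, tumor WT and no tumor WT. Each group was a transplant of WT conventional T cells together with T_reg_ cells of the named genotype into C57BL/6 mice. In the study's schema of its transfer models the mice were first irradiated and given T cell-depleted bone marrow cells, and the T cells followed later. In the 3 tumor groups the mice also received MLL-AF9 cells, an acute myeloid leukemia line that carries eGFP, and the no tumor WT group received none. The tumor Tbet-KO group had T_reg_ cells labelled as lacking Tbet (gene Tbx21), the tumor ST2-KO group had T_reg_ cells labelled as lacking ST2 (gene Il1rl1), the receptor of IL-33, and the last 2 groups had WT T_reg_ cells. T_reg_ cells were sorted from the bone marrow (BM) on day 14. Per the study's methods all T_reg_ cells were gated on surface CD4 and CD25. The WT and ST2-KO T_reg_ cells, which carried eGFP under Foxp3, were further gated as eGFP+, and the Tbet-KO T_reg_ cells as lacking CD127. Genotype and this last gate cannot be told apart in comparisons with the Tbet-KO libraries. The labels do not say whether the 3 libraries of a group came from separate mice, and their spread may be technical.

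Bach2 is a repressor that, with small Maf proteins, keeps T and B lymphocytes from effector or plasma cell fates, and it is known to be needed for T_reg_ cell formation. Tcf7 (the protein TCF-1), Lef1 and Satb1 are factors of thymocytes and naive T cells, Foxp1 maintains naive T cell quiescence and early B cell development, and Tcf3 (the E proteins E12 and E47) with Ebf1 starts the B cell program, with Id3 as an inhibitor of E proteins. Sox4 acts in the survival of early B and T precursors. Tnfrsf19 (TROY) and Lgr5, an R-spondin receptor, are surface proteins best known from Wnt-dependent stem cells of epithelia. Several of these genes are thus active in B as well as in T precursors, and each was set against Ebf1, a B lineage factor, and Cd3e, a chain of the T cell receptor complex.

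The library labels were checked first. Il1rl1 had 92.7, 86.6 and 90.3 CPM (counts per library scaled by TMM to a common size) in the tumor ST2-KO libraries, against 123, 127 and 136 CPM in tumor WT and 76.7, 79 and 74.8 CPM in no tumor WT. When libraries were scaled on T lineage genes, as described further on, the log2 fold change of Il1rl1 in tumor ST2-KO over tumor WT was 0.45, above 0. Tbx21 had 16.1, 14.0 and 13.8 CPM in the tumor Tbet-KO libraries, against 41.7, 36.2 and 38.1 CPM in tumor WT and 12.2, 17.5 and 16.6 CPM in no tumor WT. Neither transcript was lost, a gene count also takes reads from outside a deleted part, and both groups are called below by their labels only. The T_reg_ cell factor Foxp3 was present in all 12 libraries, at 106 to 118 CPM in tumor Tbet-KO, 95.2 to 117 CPM in tumor ST2-KO, 153 to 162 CPM in tumor WT and 65.1 to 71.4 CPM in no tumor WT. Libraries held 13272943 to 18042521 counts. The share of counts on Rn45s, a ribosomal RNA precursor, was 7.07 to 7.44% in tumor ST2-KO and 3.53 to 5.20% in the other 9 libraries. The columns of tumor ST2-KO and tumor WT in the count table carry the same sequencer sample numbers. Whether these groups were sequenced apart is not given in the sources used here, and a difference of run, if there was one, cannot be told apart from genotype between them.

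Markers of cell types other than T cells were present in every library. The summed level of 12 B lineage genes (led by Ebf1 and Pax5) was 136 to 146 CPM in tumor Tbet-KO, 3185 to 3283 CPM in tumor ST2-KO, 1223 to 1231 CPM in tumor WT and 4423 to 4451 CPM in no tumor WT. The summed level of 7 pro-B and pre-B cell genes (led by Vpreb1 and Igll1) was 471 to 498, 1867 to 1907, 892 to 914 and 2527 to 2583 CPM in the same 4 groups. The summed level of 15 T lineage genes (led by Cd3e) ran the other way, with 2282 to 2322 CPM in tumor Tbet-KO, 1023 to 1053 CPM in tumor ST2-KO, 2010 to 2056 CPM in tumor WT and 788 to 826 CPM in no tumor WT. The granulocyte list summed to 10204 to 16430 CPM across all libraries. The monocyte and macrophage list summed to 1967 to 2988 CPM, the plasmacytoid dendritic cell list to 385 to 881 CPM, the erythroid list to 45 to 306 CPM. The stem cell and leukemia list summed to 65.0 to 357 CPM, the marrow stroma list to 58.5 to 187 CPM, and the list of NK and innate lymphoid cells to 40.5 to 83.9 CPM. No marker on these 10 lists that was in the table was at 0 in all libraries of a group. In such bulk samples fewer cells of a type and less RNA per cell cannot be told apart.

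Promoters of the 10 genes are shown first, because the E protein Tcf3 is among the 10 and its family binds the letters CAGCTG and CACCTG. RefSeq windows (GRCm38.p6, 250 bases before to 50 after a start) were matched by symbol for 9 of the 10 genes, in 20 windows, since several genes have more than 1 start. Of these windows 2 were of Tcf7 and 5 of Satb1, whose order of groups differed from that of Bach2. CACCTG, read on both strands, was in 6 of the 20 windows (30.0%) against 20.2% of all 32851 windows. CAGCTG was in 5 of 20 (25%) against 16.3%. Windows of Tcf7 and Satb1 were among those with a match for both. Some windows of Lef1 and of Satb1 overlap each other, so nothing is read from these shares. The Tcf and Lef letters CTTTGAT were in 1 of 20 windows (5.0%), at a second start of Tnfrsf19, against 3.73% of all windows. The Ebf1 motif (TCCC and GGGA with any 2 bases between them) was in 0 of 20 windows against 0.904%, and the Bach and AP-1 letters TGAGTCA were in 0 of 20 against 5.2%. The windows of Bach2, Id3 and Tcf3 held none of these letters, and the Bach2 window lies at an internal start. A match is a description of the letters and no site. The 250 bases before the first start of Tnfrsf19 are printed for their 3 CACCTG matches, the most of any window of the 10 genes, and those of Sox4 for the CAGCTG match before its only start. Capitals mark the matched letters on either strand, and both sequences read 5′ to 3′ on the gene's strand, which is the minus strand in both. Tnfrsf19 lies at chr14:60963834-61046855 with the printed bases at chr14:61046856-61047105, and Sox4 lies at chr13:28948919-28953699 with the printed bases at chr13:28953700-28953949.
Tnfrsf19: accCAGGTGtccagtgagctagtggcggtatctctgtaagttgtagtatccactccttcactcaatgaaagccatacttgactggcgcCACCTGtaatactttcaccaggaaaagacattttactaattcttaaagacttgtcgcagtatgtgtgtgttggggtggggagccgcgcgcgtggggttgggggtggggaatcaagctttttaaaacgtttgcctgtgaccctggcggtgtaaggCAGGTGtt
Sox4: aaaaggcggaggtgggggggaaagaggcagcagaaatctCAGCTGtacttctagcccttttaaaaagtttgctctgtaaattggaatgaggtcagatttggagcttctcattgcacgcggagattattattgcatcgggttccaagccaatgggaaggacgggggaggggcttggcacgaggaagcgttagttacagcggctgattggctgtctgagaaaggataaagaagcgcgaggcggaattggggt

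Bach2 (chr4:32238413-32586109) varied over the widest range of the transcription regulators among the 10. It had 48, 53.3 and 47.8 CPM in tumor Tbet-KO, 1352, 1316 and 1332 CPM in tumor ST2-KO, 452, 452 and 464 CPM in tumor WT and 1685, 1686 and 1701 CPM in no tumor WT. No 2 groups overlapped, and the highest group mean stood 34.0-fold above the lowest on the log2 FPKM scale. Per length, Bach2 was at 5.86, 157, 53.6 and 199 FPKM (geometric means of tumor Tbet-KO, tumor ST2-KO, tumor WT and no tumor WT), and Ebf1 was at 2.99, 91.9, 40.1 and 139 FPKM in the same groups. The log2 FPKM of Bach2 minus that of Ebf1 was 0.97 ± 0.21 in tumor Tbet-KO, 0.77 ± 0.04 in tumor ST2-KO, 0.42 ± 0.02 in tumor WT and 0.52 ± 0.07 in no tumor WT (SD, n = 3 each), a span of 0.55 across group means, while its difference from Cd3e spanned 6.58. Against the summed CPM of the 12 B lineage genes, the log2 ratio of Bach2 was -1.5, -1.28, -1.43 and -1.39 in the 4 groups, a span of 0.22. Bach2 thus kept close to 1 ratio with the sum of the B lineage genes (log2 ratio from -1.61 to -1.25 across all 12 libraries). That sum includes Pou2af1, the gene nearest to Bach2 in pattern. Single genes of the list varied, with log2 fold changes from -3.90 to -1.72 in tumor Tbet-KO over tumor WT. How much of the level of Bach2 came from which cells was not tested.

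**Figure D1:**
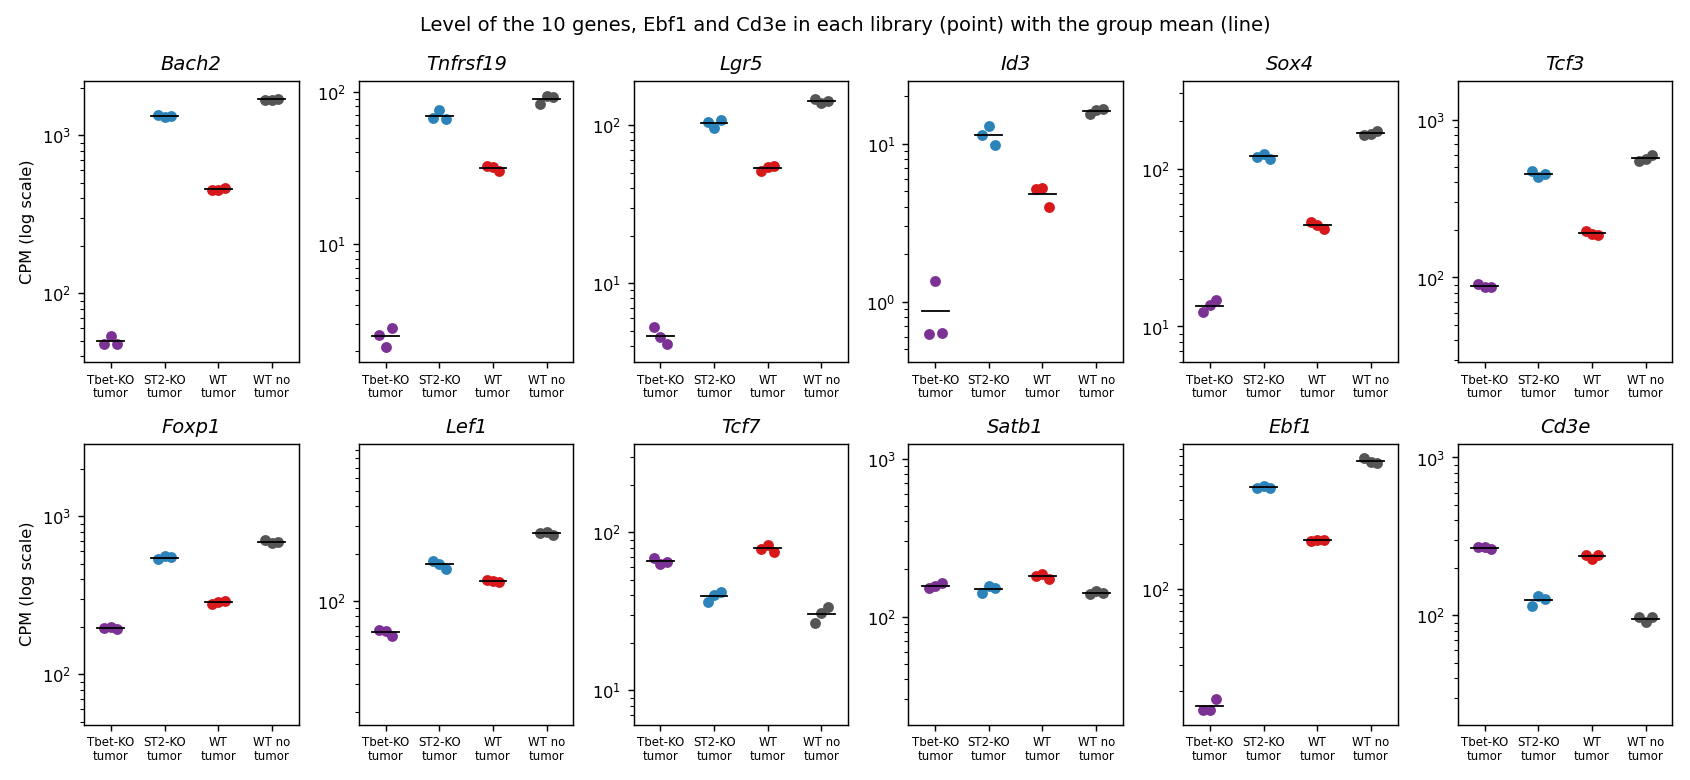
CPM of the 10 genes, Ebf1 and Cd3e (log axis, 1 point a library, line at the group mean) in tumor Tbet-KO, tumor ST2-KO, tumor WT and no tumor WT, each panel with at least a 60-fold axis. The first 8 genes and Ebf1 are lowest in tumor Tbet-KO and highest in no tumor WT (Bach2 47.8 to 53.3 CPM against 1685 to 1701 CPM), whereas Tcf7 is lowest in no tumor WT and Satb1 stays between 138 and 186 CPM.

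The surface receptors Tnfrsf19 and Lgr5 had the pattern of Bach2. Tnfrsf19 had 2.56, 2.12 and 2.83 CPM in tumor Tbet-KO, 67.1, 75.2 and 65.7 CPM in tumor ST2-KO, 32.6, 31.9 and 30.0 CPM in tumor WT and 83, 93.7 and 91.6 CPM in no tumor WT. Lgr5 (chr10:115450314-115587780) had 5.25, 4.54 and 4.10 CPM in tumor Tbet-KO, 105, 96.1 and 108 CPM in tumor ST2-KO, 51.0, 54.7 and 54.8 CPM in tumor WT and 147, 137 and 142 CPM in no tumor WT. The 4 groups did not overlap for either gene. The group means spanned 34.2-fold for Tnfrsf19 and 30.0-fold for Lgr5. Relative to Ebf1 they spanned only 0.45 (Tnfrsf19) and 0.63 (Lgr5) log2 units, against 6.59 and 6.40 relative to Cd3e. In the tumor Tbet-KO libraries Tnfrsf19 rested on 36 to 41 counts and Lgr5 on 58 to 84 counts.

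Id3 and Sox4 followed the same order of groups. Id3 (chr4:136143822-136145392) was the lowest of the 10, with 0.625, 1.36 and 0.637 CPM (9 to 23 counts) in tumor Tbet-KO, 11.4, 13 and 9.84 CPM in tumor ST2-KO, 5.18, 5.24 and 4.0 CPM in tumor WT and 15.4, 16.5 and 16.6 CPM in no tumor WT. Its few counts in tumor Tbet-KO leave the ratio to Ebf1 there (-1.58 ± 0.64, SD, n = 3) the least precise of the 40. Sox4 had 12.3, 13.7 and 14.6 CPM in tumor Tbet-KO, 119, 124 and 116 CPM in tumor ST2-KO, 45.6, 43.9 and 41.5 CPM in tumor WT and 162, 166 and 174 CPM in no tumor WT. The difference of Sox4 from Ebf1 in log2 FPKM was 0.63 in tumor Tbet-KO but -1.18, -1.44 and -1.29 in tumor ST2-KO, tumor WT and no tumor WT, so that Sox4 stood higher relative to Ebf1 in the Tbet-KO libraries than in the others.

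Tcf3, Foxp1 and Lef1 had the order of Bach2 over a narrower range. Tcf3 (chr10:80409541-80433976) had 91.1, 86.5 and 86.8 CPM in tumor Tbet-KO, 474, 434 and 449 CPM in tumor ST2-KO, 196, 189 and 187 CPM in tumor WT and 544, 564 and 592 CPM in no tumor WT. Foxp1 (chr6:98925342-99522746) had 196, 199 and 195 CPM in tumor Tbet-KO, 534, 558 and 553 CPM in tumor ST2-KO, 280, 286 and 292 CPM in tumor WT and 712, 681 and 688 CPM in no tumor WT. Lef1 (chr3:131110297-131224357) had 65.9, 64.4 and 60 CPM in tumor Tbet-KO, 180, 172 and 160 CPM in tumor ST2-KO, 136, 134 and 131 CPM in tumor WT and 268, 273 and 263 CPM in no tumor WT. No 2 groups overlapped for any of these 3 genes, and their group means spanned 6.43-fold, 3.53-fold and 4.23-fold. Relative to Ebf1 all 3 stood far higher in tumor Tbet-KO than in the other groups: Tcf3 by 3.06 against 0.47, 0.42 and 0.20 log2 FPKM, Foxp1 by 3.14 against -0.33, -0.07 and -0.59, and Lef1 by 2.53 against -0.99, -0.14 and -0.93 (in tumor ST2-KO, tumor WT and no tumor WT). Their levels therefore tracked neither marker across all 4 groups, since relative to Cd3e they also spanned 4.18 (Tcf3), 3.31 (Foxp1) and 3.57 (Lef1) log2 units.

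**Figure D2:**
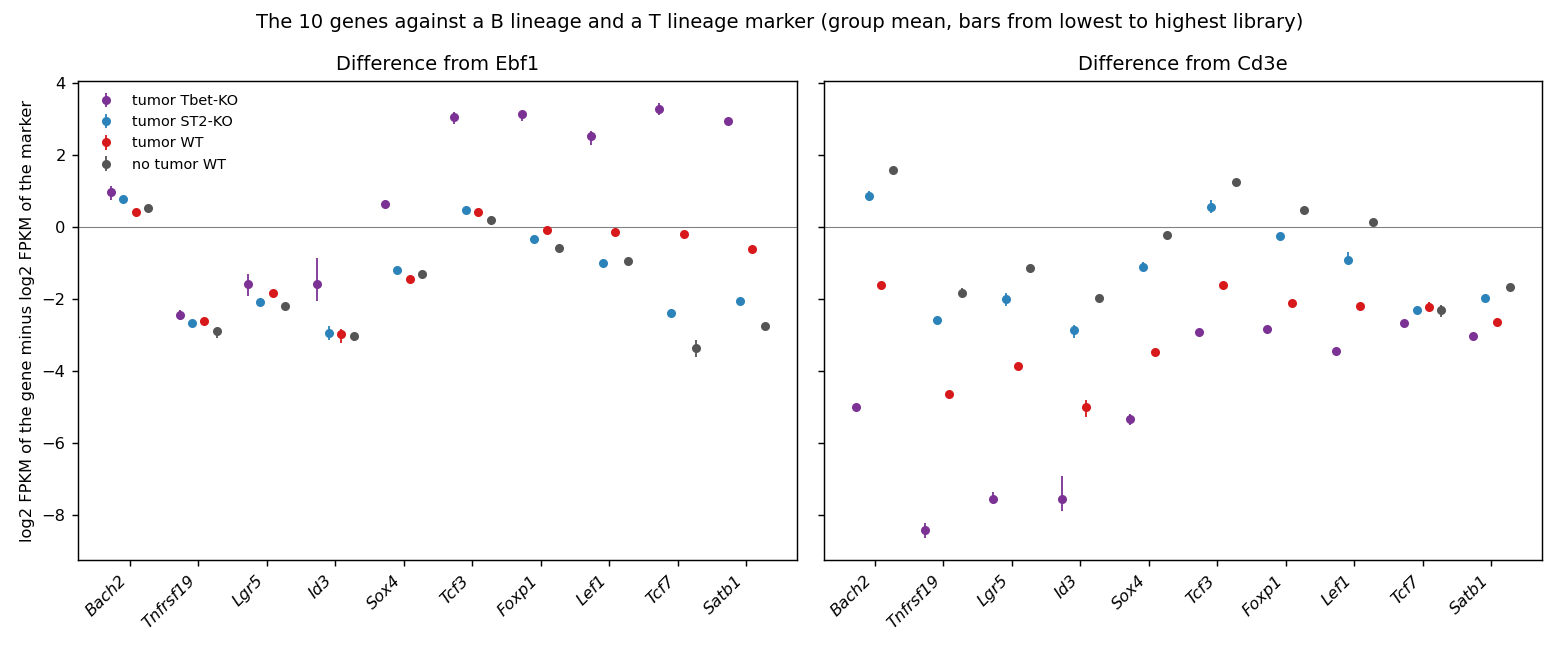
log2 FPKM of each of the 10 genes minus that of Ebf1 (left) or Cd3e (right), as the mean of 3 libraries per group with bars from the lowest to the highest library. Bach2, Tnfrsf19 and Lgr5 keep near 1 level relative to Ebf1 (spans of 0.55, 0.45 and 0.63) and Tcf7 near 1 level relative to Cd3e (span 0.46), while Foxp1 spans 3.72 and 3.31.

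Tcf7 and Satb1 had another order. Tcf7 (chr11:52246527-52283383) had 68.6, 63.0 and 65.1 CPM in tumor Tbet-KO, 36.2, 40.4 and 41.8 CPM in tumor ST2-KO, 78.7, 83.1 and 75.4 CPM in tumor WT and 26.6, 30.8 and 33.8 CPM in no tumor WT. It was lowest in no tumor WT and highest in tumor WT, with no overlap between any 2 groups. The log2 FPKM of Tcf7 minus that of Cd3e was -2.67 in tumor Tbet-KO, -2.30 in tumor ST2-KO, -2.22 in tumor WT and -2.29 in no tumor WT, and the tumor Tbet-KO libraries (-2.75 to -2.62) lay below those of the other 3 groups (-2.51 to -2.09). Against the summed CPM of the 15 T lineage genes its log2 ratio was -5.14, -4.72, -4.69 and -4.73 in the same groups. On both measures the Tbet-KO libraries were the lowest.

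Satb1 (chr17:51736187-51833290) varied least. It had 152, 156 and 163 CPM in tumor Tbet-KO, 141, 157 and 153 CPM in tumor ST2-KO, 180, 186 and 172 CPM in tumor WT and 138, 144 and 142 CPM in no tumor WT. The tumor WT libraries stood above all others, and neighbours among the other 3 groups overlapped. The group means spanned 1.27-fold, while relative to Ebf1 and to Cd3e Satb1 spanned 5.69 and 1.34 log2 units, so that its near-constant share of the library followed neither lineage marker.

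**Figure D3:**
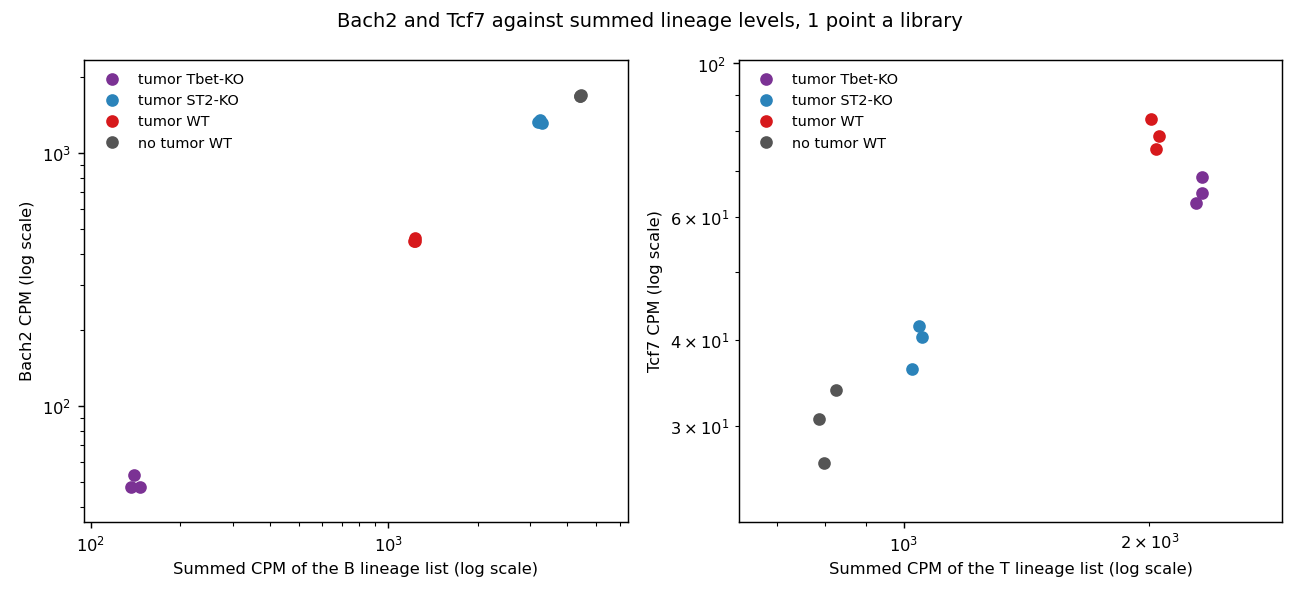
Bach2 CPM against the summed CPM of 12 B lineage genes (left) and Tcf7 CPM against the summed CPM of 15 T lineage genes (right), log axes, 1 point a library. Bach2 lies near a line of constant ratio over the 4 groups (group means of the log2 ratio from -1.5 to -1.28). The tumor ST2-KO libraries have the highest ratios (-1.32 to -1.25). For Tcf7 the tumor Tbet-KO libraries lie below the tumor WT libraries (63.0 to 68.6 against 75.4 to 83.1 CPM). Their T lineage sum is higher (2282 to 2322 against 2010 to 2056 CPM).

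The likeness of patterns was measured as the root mean square difference of log2 CPM, centred on each gene's mean, over the 12 libraries, which fall into 4 tight groups, so that a small value says mainly that 2 genes share their group means. Among the 10, Tnfrsf19 and Lgr5 (0.19), Bach2 and Tnfrsf19 (0.22), Foxp1 and Lef1 (0.24) and Bach2 and Lgr5 (0.25) were the closest pairs, and Bach2 and Tcf7 (2.44) the farthest. The nearest of all genes to Bach2 was Pou2af1 (0.101), a B cell coactivator, followed by Cecr2, Fcrla, Mybpc2 and Spib. The nearest to Tnfrsf19 was Ebf1 itself (0.187), followed by Lgr5, Pou2af1, Cd79a and Bach2. Lgr5 was nearest to Ehd2 (0.190), Rag2, Tnfrsf19, Blnk and Cd79a, and Id3 to Cd79b (0.211), Mzb1, Irs1, Cd72 and Tmem108. Rag2 encodes a subunit of the antigen receptor recombinase, and Cd79a, Cd79b and Blnk encode parts of B cell receptor signalling. The neighbours of the other genes were of other kinds, with Hist1h1a (0.033) and Ezh2 nearest to Foxp1, and Cnp (0.070) and Smarca4 to Tcf3. Gpam (0.117) and Atp1b1 were nearest to Sox4, and Pde2a (0.085) and Zfpm1 to Lef1. Lgals3bp (0.088) and Pde7b were nearest to Tcf7, followed by Itih5, Dusp4 and Fcgr3 (0.136), each nearer than Cd3e (0.203). Dnttip2 (0.052) and Sec14l1 were nearest to Satb1.

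The 4 comparisons of the study were fitted over all genes with edgeR's quasi-likelihood test, and a gene was called at a Benjamini-Hochberg adjusted p below 0.05. All p-values set a difference against the spread between libraries, which may not hold the spread between mice. Comparisons that have a group in common share its libraries, so each is given by its own values. In tumor Tbet-KO over tumor ST2-KO, the log2 fold change was -4.80 ± 0.12 for Tnfrsf19, -4.74 ± 0.03 for Bach2, -4.47 ± 0.09 for Lgr5, -3.67 ± 0.25 for Id3, -3.14 ± 0.07 for Sox4, -2.36 ± 0.04 for Tcf3, -1.48 ± 0.03 for Foxp1 and -1.43 ± 0.05 for Lef1 (± SE, n = 3 against 3). Tcf7 was at 0.73 ± 0.08 and Satb1 at 0.07 ± 0.05. Of the 10 genes 8 were called lower and 1, Tcf7, higher, where 27.4% of all tested genes were called lower and 26.4% higher. Beyond a log2 fold change of 1, 8 of the 10 were lower and 0 higher, against 7.28% lower and 5.17% higher of all genes. In the same comparison 12 of 12 B lineage genes fell, with a median log2 fold change of -4.78, and 15 of 15 T lineage genes rose (median 1.11). The erythroid list had 4 of 4 genes lower (median -1.44), the marrow stroma list 5 of 7 lower and 1 higher (median -1.16), and the stem cell and leukemia list 6 of 6 higher (median 0.99).

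In tumor Tbet-KO over tumor WT, all 10 were called lower, beside 20.6% of all tested genes lower and 18.1% higher. Tnfrsf19 (-3.66 ± 0.13), Lgr5 (-3.52 ± 0.10), Bach2 (-3.19 ± 0.03) and Id3 (-2.43 ± 0.26) had the largest log2 differences (± SE). Sox4 (-1.69 ± 0.08), Tcf3 (-1.11 ± 0.04) and Lef1 (-1.08 ± 0.05) followed, and Foxp1 (-0.54 ± 0.03), Tcf7 (-0.27 ± 0.07) and Satb1 (-0.19 ± 0.04) differed least. Beyond a log2 fold change of 1, 7 were lower and 0 higher, against 5.24% lower and 2.09% higher of all genes. Beside them 12 of 12 B lineage genes and 7 of 7 pro-B and pre-B cell genes fell, with medians of -3.32 and -3.94, while 9 of 15 T lineage genes rose, 3 fell and 3 did not pass (median 0.24). The erythroid genes fell in 4 of 4 cases (median -2.41) and the marrow stroma genes in 5 of 7 with 1 higher (median -1.04), while 6 of 6 stem cell and leukemia genes rose (median 1.0).

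In tumor ST2-KO over tumor WT, 8 of the 10 genes were called higher and 2 lower, beside 23.1% of all tested genes higher and 22.8% lower. The log2 difference was 1.55 ± 0.03 for Bach2, 1.45 ± 0.06 for Sox4, 1.24 ± 0.03 for Tcf3, 1.24 ± 0.19 for Id3, 1.14 ± 0.08 for Tnfrsf19, 0.95 ± 0.06 for Lgr5, 0.94 ± 0.03 for Foxp1 and 0.35 ± 0.04 for Lef1 (± SE). Tcf7, at -1.0 ± 0.08, and Satb1, at -0.26 ± 0.04, were lower. Beyond a log2 fold change of 1, 5 were higher and 1 lower (Tcf7), against 2.66% higher and 2.42% lower of all genes. Of the B lineage genes 12 of 12 rose (median 1.33) and of the T lineage genes 15 of 15 fell (median -1.02). Of the monocyte and macrophage genes 8 of 8 fell (median -0.53), of the granulocyte genes 7 of 8 (median -0.67) and of the erythroid genes 3 of 4 (median -1.02).

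In tumor WT over no tumor WT, 8 were called lower and 2 higher, beside 29.4% of all tested genes lower and 29% higher. The log2 difference was -1.94 ± 0.06 for Sox4, -1.89 ± 0.03 for Bach2, -1.74 ± 0.19 for Id3, -1.57 ± 0.03 for Tcf3, -1.51 ± 0.08 for Tnfrsf19, -1.41 ± 0.06 for Lgr5, -1.28 ± 0.03 for Foxp1 and -1.0 ± 0.04 for Lef1 (± SE). Tcf7, at 1.38 ± 0.08, and Satb1, at 0.34 ± 0.04, were higher with leukemia. Beyond a log2 fold change of 1, 8 were lower and 1 higher, against 4.96% lower and 8.85% higher of all genes. Here 12 of 12 B lineage genes fell (median -1.79) and 15 of 15 T lineage genes rose (median 1.45). The monocyte and macrophage list rose in 8 of 8 genes (median 1.12), the granulocyte list in 7 of 8 with 1 lower (median 0.77), and the stem cell and leukemia list in 6 of 6 (median 2.56). The part of these other cells in the differences of the 10 genes was not tested.

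The libraries were also scaled on the 15 T lineage genes, which sets these genes level in place of all genes and moves the median log2 fold change of all genes by -1.15 in tumor Tbet-KO over tumor ST2-KO, -0.18 in tumor Tbet-KO over tumor WT, 0.97 in tumor ST2-KO over tumor WT and -1.34 in tumor WT over no tumor WT. The 8 genes that share the order of Bach2 differed in the direction of this shift in all 4 comparisons. The shift could therefore only move them further from 0, and their kept direction is no check on the scaling. Bach2 came to -5.89, -3.37, 2.52 and -3.23 in the same order. Tcf7 did not pass in tumor ST2-KO over tumor WT (-0.03) and in tumor WT over no tumor WT (0.04) and turned lower in tumor Tbet-KO over tumor ST2-KO (-0.42). Satb1 changed sign in 3 comparisons, to -1.08 in tumor Tbet-KO over tumor ST2-KO, 0.71 in tumor ST2-KO over tumor WT and -1.0 in tumor WT over no tumor WT. Of the other marker lists given above beside a comparison, the granulocyte median turned to 0.30 and the monocyte and macrophage median to 0.44 in tumor ST2-KO over tumor WT, and they turned to -0.57 and -0.22 in tumor WT over no tumor WT. The stem cell and leukemia median turned to -0.16 in tumor Tbet-KO over tumor ST2-KO.

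**Figure D4:**
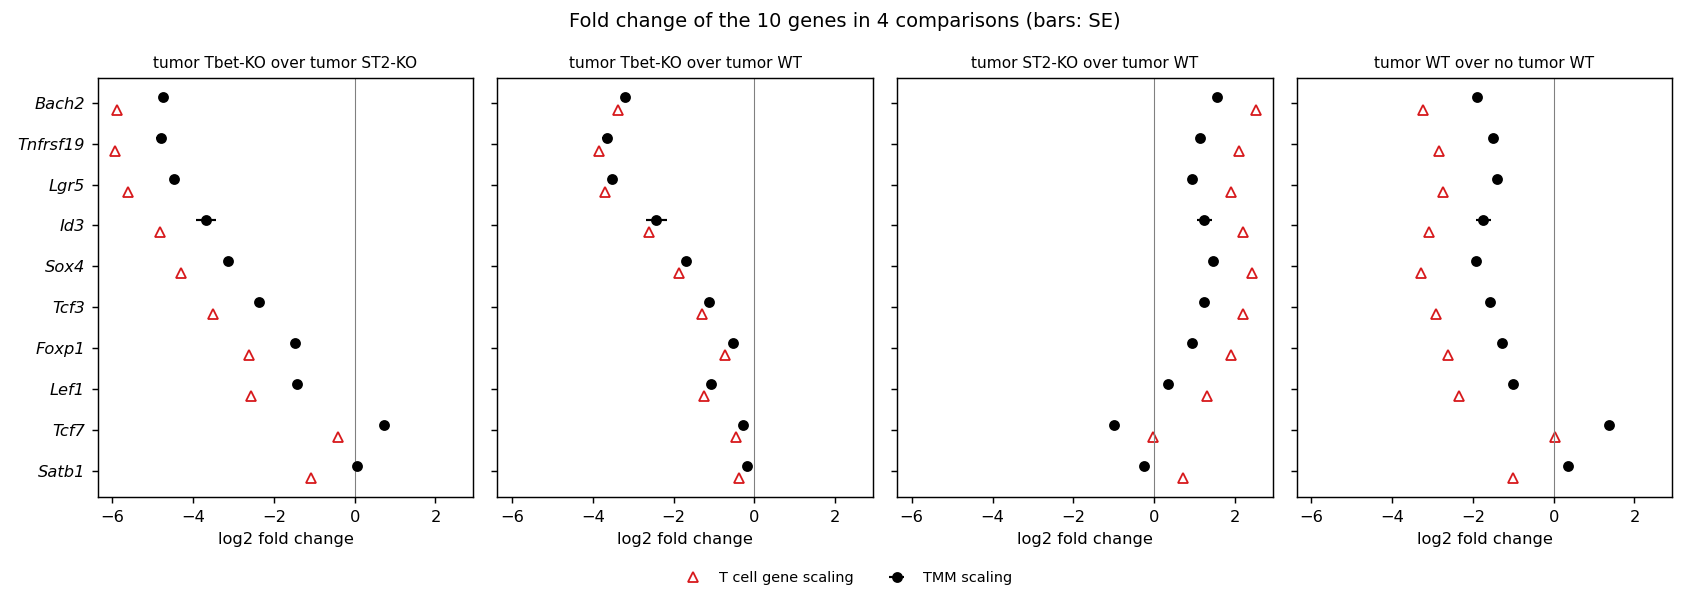
log2 fold change of the 10 genes in 4 comparisons with TMM scaling (filled, bars SE) and with scaling on 15 T lineage genes (open triangles). Bach2 lies on the same side of 0 on both scales in each panel (-4.74 and -5.89 in tumor Tbet-KO over tumor ST2-KO), while Tcf7 is at 1.38 on the first scale and 0.04 on the second in tumor WT over no tumor WT and Satb1 changes side in 3 panels. The shift between the scales runs in the direction of the Bach2 difference in each panel, so Bach2 could not change side.

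A further 5 lists, with 55 genes tested, were read beside the 10 and did not move as a block. They were 12 genes of naive T cell quiescence and recirculation, 7 partners and repressed targets of Bach2, 13 family relatives of the 10, 13 genes of the Wnt and R-spondin pathway and 10 regulators of effector differentiation. With TMM scaling 19 rose, 23 fell and 13 did not pass in tumor Tbet-KO over tumor ST2-KO. Of the same 55, 13 rose, 24 fell and 18 did not pass in tumor Tbet-KO over tumor WT. In tumor ST2-KO over tumor WT 12 rose, 20 fell and 23 did not pass, and 23 rose, 16 fell and 16 did not pass in tumor WT over no tumor WT. Of all tested genes 26.4% rose and 27.4% fell in the first of these comparisons, and 18.1% rose and 20.6% fell in the second. The shares were 23.1% and 22.8% in the third and 29% and 29.4% in the fourth. These shares also stand beside the counts of each list below. The medians of the 55 genes were -0.02, -0.10, -0.08 and 0.08 in these comparisons, beside medians of 0.00, 0.01, 0.00 and 0.00 for all genes. On the T lineage scale the counts became 2 higher and 46 lower, 9 higher and 34 lower, 49 higher and 0 lower, and 5 higher and 43 lower, so that the split depends on the scale.

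Bach2 is known to repress Prdm1, the plasma cell and effector regulator Blimp-1, and Hmox1, heme oxygenase 1, and to work with small Maf proteins. Prdm1 had 65.0, 63.7 and 66.4 CPM in tumor Tbet-KO, 40.1, 41.2 and 43.8 CPM in tumor ST2-KO, 69.7, 70.1 and 68.0 CPM in tumor WT and 32.3, 24.2 and 27.4 CPM in no tumor WT. Hmox1 had 229, 224 and 232 CPM in tumor Tbet-KO, 386, 345 and 369 CPM in tumor ST2-KO, 552, 564 and 560 CPM in tumor WT and 172, 174 and 169 CPM in no tumor WT. In tumor WT over no tumor WT both genes rose with TMM scaling (Prdm1 1.31 ± 0.08, adjusted p = 3.3e-26, and Hmox1 1.70 ± 0.03, adjusted p = 5.5e-59 in edgeR's quasi-likelihood test), though Prdm1 came to -0.03 on the T lineage scale. In tumor Tbet-KO over tumor WT, where the level of Bach2 was 9.15-fold lower, Prdm1 did not pass (-0.09 ± 0.07, adjusted p = 0.35 in edgeR) and Hmox1 fell (-1.29 ± 0.03, adjusted p = 7e-51 in edgeR). Which cells the RNA of Bach2, Prdm1 and Hmox1 came from was not tested, and repression by Bach2 was not tested. In tumor ST2-KO over tumor WT Hmox1 fell by 0.61 on the log2 scale with TMM scaling but was at 0.36 on the T lineage scale. Irf4, a factor of activated T cells and of B cell and plasma cell development, had the order of Bach2, with 96.1, 91.4 and 95.7 CPM in tumor Tbet-KO, 609, 637 and 630 CPM in tumor ST2-KO, 271, 268 and 268 CPM in tumor WT and 826, 810 and 810 CPM in no tumor WT. It was the 1 gene of this list that rose in tumor ST2-KO over tumor WT (1.22 ± 0.03) and the 1 that fell in tumor WT over no tumor WT (-1.60 ± 0.03). Of the 7 genes, 2 rose and 3 fell in tumor Tbet-KO over tumor ST2-KO (median -0.18). The small Maf gene Mafg (0.52 ± 0.11) was the 1 that rose in tumor Tbet-KO over tumor WT, and 4 fell (median -0.39). Likewise 1 rose and 3 fell in tumor ST2-KO over tumor WT (median -0.26), and 3 rose and 1 fell in tumor WT over no tumor WT (median 0.25).

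Among the family relatives, Bach1, the closest relative of Bach2, stayed level while Bach2 varied. It had 114, 111 and 111 CPM in tumor Tbet-KO, 110, 107 and 107 CPM in tumor ST2-KO, 112, 120 and 109 CPM in tumor WT and 108, 108 and 106 CPM in no tumor WT, and passed the test in none of the 4 comparisons with TMM scaling (adjusted p from 0.13 to 0.76 in edgeR). Its log2 fold change was 0.05 ± 0.05 in tumor Tbet-KO over tumor ST2-KO, -0.02 ± 0.05 in tumor Tbet-KO over tumor WT, -0.07 ± 0.05 in tumor ST2-KO over tumor WT and 0.09 ± 0.05 in tumor WT over no tumor WT. On the T lineage scale it became -1.10, -0.20, 0.90 and -1.25. Foxp4, a relative of Foxp1 and Foxp3, followed the order of Foxp1, at -1.53 ± 0.06, -0.64 ± 0.06, 0.89 ± 0.05 and -1.03 ± 0.05 in these comparisons. The E protein gene Tcf12 fell in tumor Tbet-KO over tumor WT (-0.65 ± 0.04) and rose in tumor ST2-KO over tumor WT (0.49 ± 0.04), as did the E protein gene Tcf4 in the second of these (0.46 ± 0.04). Id2, an E protein inhibitor like Id3, went the other way from Id3 with TMM scaling, at 1.33 ± 0.04 in tumor Tbet-KO over tumor ST2-KO (343 against 136 CPM) and 1.17 ± 0.04 in tumor WT over no tumor WT (266 against 118 CPM). On the T lineage scale the first stayed higher (0.18) and the second turned (-0.17). Sox12, a relative of Sox4, fell in tumor Tbet-KO over tumor WT (-1.28 ± 0.23, 2.39 against 5.82 CPM). Lgr6, an R-spondin receptor like Lgr5, had 122 to 149 counts in the tumor Tbet-KO libraries, 25 to 60 in tumor ST2-KO, 36 to 69 in tumor WT and 0 in each no tumor WT library. In tumor WT it was at least 48.7-fold higher, against a floor of 3 counts over the 3 no tumor WT libraries, and rose in tumor Tbet-KO over tumor WT (1.41 ± 0.27, adjusted p = 1.2e-05 in edgeR), while Lgr5 was lower in both. Of the 13 relatives, 3 rose and 5 fell in tumor Tbet-KO over tumor ST2-KO (median 0.05), 5 rose and 5 fell in tumor Tbet-KO over tumor WT (median -0.02), 3 rose and 2 fell in tumor ST2-KO over tumor WT (median 0.17), and 4 rose and 4 fell in tumor WT over no tumor WT (median 0.07, also with Lgr6 at its bound).

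Of the quiescence list, Foxo1, which drives Klf2 and Il7r in naive T cells, was among the genes with the largest differences in all 4 comparisons. Foxo1 averaged 84.1 CPM in tumor Tbet-KO, 264 CPM in tumor ST2-KO, 166 CPM in tumor WT and 326 CPM in no tumor WT, with log2 fold changes of -1.65 ± 0.04, -0.98 ± 0.04, 0.67 ± 0.04 and -0.98 ± 0.04 in the 4 comparisons. Klf2 rose in tumor ST2-KO over tumor WT (0.80 ± 0.05) and fell in tumor WT over no tumor WT (-1.02 ± 0.05), as did Btg1, an antiproliferative gene (0.81 ± 0.03 and -0.98 ± 0.03). Il7r, the gene of CD127, fell in tumor WT over no tumor WT (-0.77 ± 0.03). The CD127 gate was used in neither of these groups, only for the Tbet-KO T_reg_ cells. Ccr7, the lymph node homing receptor, fell in tumor Tbet-KO over tumor WT (-1.28 ± 0.13). Bcl2, a survival gene, was the 1 member of the list that rose in tumor Tbet-KO over tumor WT (0.34 ± 0.05), and it rose in tumor WT over no tumor WT (1.27 ± 0.06) with TMM scaling but not on the T lineage scale (-0.07). Of the 12 genes, 3 rose and 7 fell (median -0.21), 1 rose and 7 fell (median -0.28), 4 rose and 5 fell (median -0.09), and 5 rose and 5 fell (median 0.06), in the order of comparisons used above.

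The Wnt pathway, of which Tcf7 and Lef1 are nuclear effectors and Lgr5 a receptor part, had few large differences. Rnf43, an E3 ligase that R-spondins and their receptors restrain, had the largest difference of the list in tumor WT over no tumor WT (1.59 ± 0.13 with TMM scaling, 20.4 against 6.75 CPM, and 0.25 on the T lineage scale), and in tumor ST2-KO over tumor WT it fell with TMM scaling (-0.51 ± 0.12) and stood at 0.46 on the T lineage scale. Tle4, a corepressor of Tcf and Lef factors, was at -0.65 ± 0.05, -0.33 ± 0.05, 0.32 ± 0.04 and -0.47 ± 0.04 in the 4 comparisons, each past the test. The related Tle3 rose in tumor Tbet-KO over tumor WT (0.30 ± 0.04) and the Wnt coreceptor Lrp6 rose in tumor ST2-KO over tumor WT (0.28 ± 0.05). Of the 13 genes, 4 rose and 6 fell (median -0.13), 3 rose and 4 fell (median -0.08), 3 rose and 3 fell (median -0.02), and 4 rose and 5 fell (median -0.06), in the same order of comparisons.

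The regulators of effector differentiation, some of them known targets of repression by Bach2, rose more often than they fell in 2 comparisons with TMM scaling, and the reverse held in both on the T lineage scale. In tumor WT over no tumor WT 7 of 10 rose and 1 fell (median 1.10), beside 29% of all tested genes higher and 29.4% lower, among them Batf, a factor of tissue T_reg_ cells (1.74 ± 0.13, 30.6 against 9.13 CPM), and Ikzf2, which encodes Helios of T_reg_ cells (1.47 ± 0.03, 715 against 259 CPM). Batf and Ikzf2 were also higher on the T lineage scale (0.40 and 0.13), where the list as a whole had a median of -0.24 with 3 higher and 6 lower. In tumor Tbet-KO over tumor ST2-KO 7 rose and 2 fell (median 0.89, and -0.26 on the T lineage scale with 1 higher and 5 lower), beside 26.4% of all tested genes higher and 27.4% lower, among them Bhlhe40, a regulator of cytokine production (1.52 ± 0.06), and Runx3, a factor of cytotoxic and type 1 cells (1.07 ± 0.06, and -0.08 on the T lineage scale). In tumor Tbet-KO over tumor WT 3 rose and 4 fell (median -0.07), with Bhlhe40 at 0.69 ± 0.05 and Runx3 at 0.55 ± 0.05 among the genes that rose and Zeb2 at -0.58 ± 0.03 and Bcl6, a target of repression by Blimp-1 and a factor of follicular T cells, at -0.44 ± 0.07 among those that fell. In tumor ST2-KO over tumor WT 1 rose and 7 fell with TMM scaling (median -0.54), against 6 higher and 0 lower on the T lineage scale (median 0.43), with Batf at -1.07 ± 0.12, and -0.10 on the T lineage scale. The gene that rose there and fell in tumor WT over no tumor WT was Zeb2 in both cases (0.36 ± 0.03 and -0.57 ± 0.03), which was named after its values were seen.

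**Figure D5:**
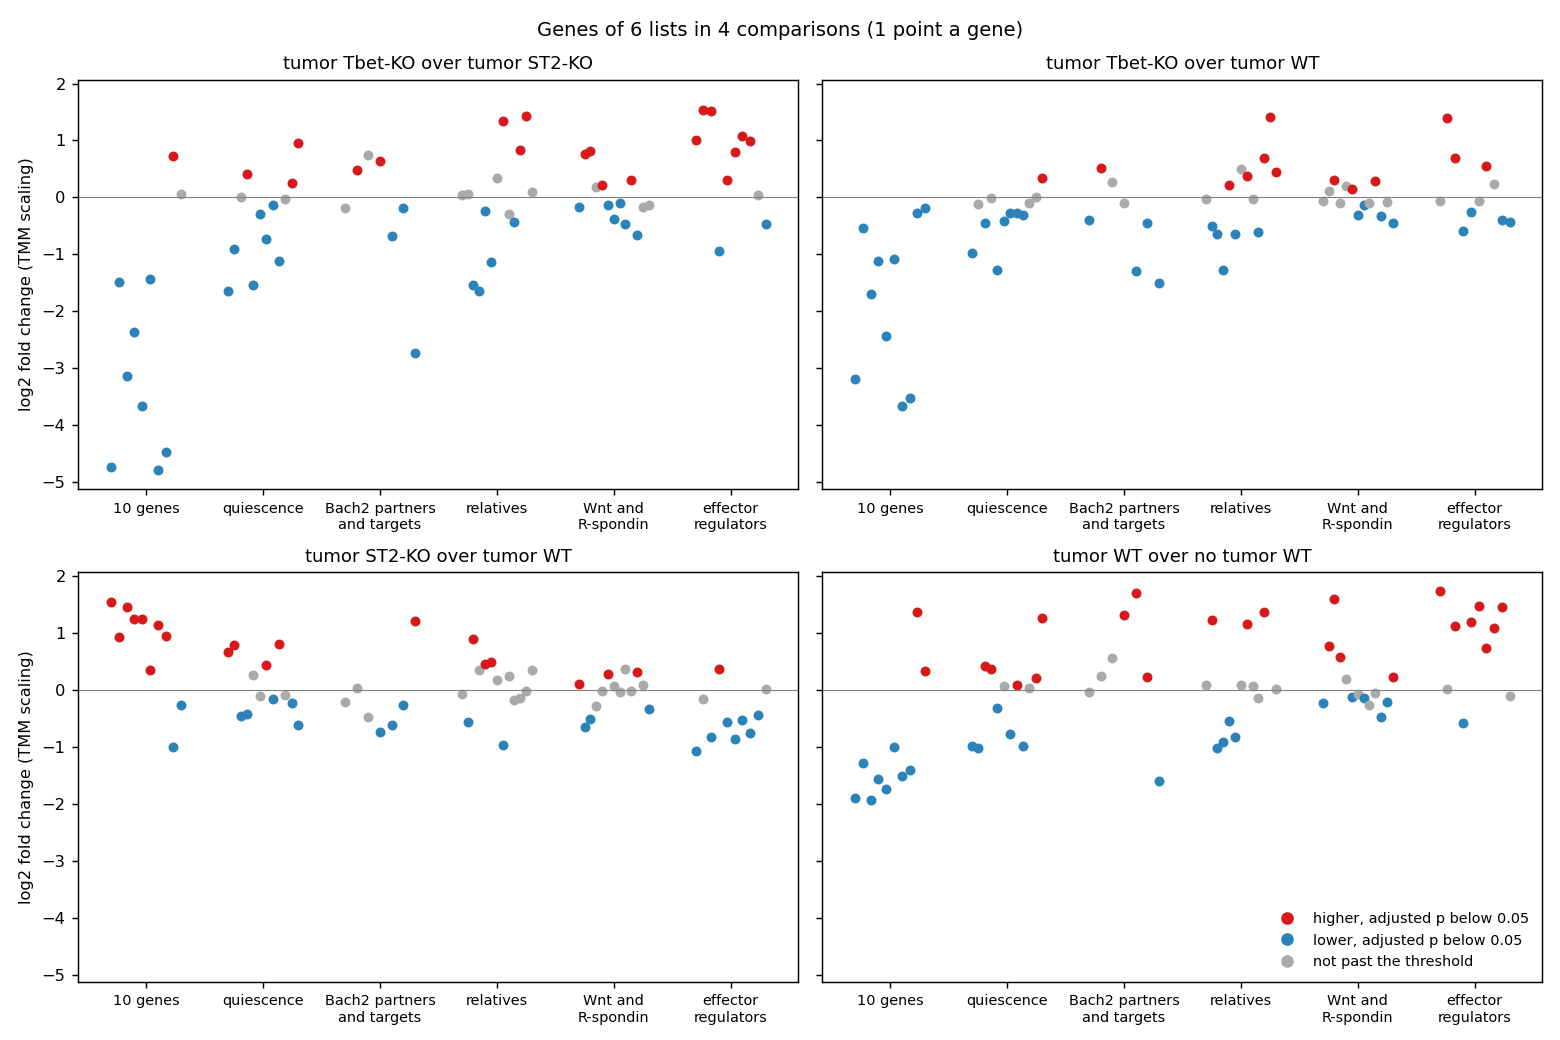
log2 fold change (TMM scaling) of the 10 genes and of the 5 lists in 4 comparisons, 1 point a gene, coloured by the call at adjusted p below 0.05. Lgr6 is left out of the panel of tumor WT over no tumor WT, where the no tumor WT libraries held 0 counts. The 10 genes reach -4.80 in tumor Tbet-KO over tumor ST2-KO, and the lowest list gene there is Irf4 at -2.73. The 10 were chosen with their levels known, so nothing is read from this difference. The effector regulators lie mostly above 0 in tumor WT over no tumor WT (7 higher, 1 lower).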

How the data were processed

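The data are RNA sequencing libraries of sorted mouse BM T_reg_ cells on day 14 (12 libraries, 4 groups of 3, total RNA after rRNA removal). Per the labels and the methods, the authors used FastQC for quality control, STAR for alignment to mm10 and featureCounts for the counts per gene. The deposited counts are whole numbers per gene and hold 13272943 to 18042521 counts per library; the smallest total of a gene over all libraries is 34, so genes with few counts were removed before deposit. The deposited log2 FPKM values equal edgeR's log2 CPM (TMM, prior count 2) less a constant per gene, with a largest deviation of 5.7e-14, and were used to compare levels between genes.

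The fit used edgeR 4.0.16 (R 4.3.3): filterByExpr over the 4 groups, TMM, 1 quasi-likelihood fit of all 12 libraries, and 4 comparisons with Benjamini-Hochberg adjustment over 13782 genes. The common biological coefficient of variation was 5.53%. With 3 against 3 libraries an exact permutation test of 1 gene cannot go below p = 0.1, so none was run. Alternatives were RLE size factors, DESeq2 1.42.0, no filter, fits of only the groups compared, a replicate block, each library left out, a log2 fold change beyond 1, scaling on 15 T lineage genes and, chosen after the data were seen, a fit without the tumor ST2-KO libraries. The script was tested on simulated counts.

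The 10 genes, the 5 lists beside them and the 10 marker lists (T lineage, B lineage, pro-B and pre-B, granulocyte, monocyte and macrophage, erythroid, stem cell and leukemia, plasmacytoid dendritic, NK and innate lymphoid, marrow stroma) were chosen with earlier results of these data known. The text names all 10 genes, Ebf1, Cd3e, Il1rl1, Tbx21, and from each list and comparison genes among the 5 that passed with the largest log2 fold change and the 3 that did not pass with the highest mean CPM, the first and most abundant genes of the marker lists, and the up to 5 genes nearest to each of the 10 with a mean log2 CPM of at least 1. Gene positions and promoter sequences are from RefSeq (GRCm38.p6, the build called mm10). Values of some genes of these lists are not reported here.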

Additional observations from a re-analysis of the deposited data

How the results depend on the processing

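The counts of called genes and the direction and call of each named gene did not move past 1.5 times or change under RLE size factors, DESeq2, no filter on low counts, a fit of only the 2 groups compared, or without the tumor ST2-KO libraries. With each library left out in turn, the 10 genes had 9 calls in tumor Tbet-KO over tumor ST2-KO and 10 in each other comparison, the 55 genes of the 5 lists had 38 to 43 (tumor Tbet-KO over tumor ST2-KO), 34 to 37 (tumor Tbet-KO over tumor WT), 31 to 34 (tumor ST2-KO over tumor WT) and 38 to 40 calls (tumor WT over no tumor WT), and all genes had 6802 to 7330, 4562 to 4732, 5605 to 6127 and 7397 to 7531. Libraries of different groups share a replicate number, and those of tumor ST2-KO and tumor WT also a sequencer sample number. Libraries with the same replicate number had correlations of their deviations from -0.020 to 0.021. The replicate block changed no call of a named gene, with 7371, 5288, 6306 and 7985 genes called over all.

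The other 2 settings moved results. Scaling on 15 T lineage genes called 12186 genes in tumor Tbet-KO over tumor ST2-KO, 11777 in tumor ST2-KO over tumor WT and 12109 in tumor WT over no tumor WT, and 49 of the 55 list genes in tumor ST2-KO over tumor WT. On that scale signs turned in tumor Tbet-KO over tumor ST2-KO for Tcf7 (-0.42), Satb1 (-1.08), Cd3e (-0.0422), Bach1 (-1.10) and Runx3 (-0.0787), in tumor ST2-KO over tumor WT for Satb1 (0.71), Cd3e (0.0474), Il1rl1 (0.45), Tbx21 (0.0214), Hmox1 (0.36), Bach1 (0.90) and Rnf43 (0.46), and in tumor WT over no tumor WT for Satb1 (-0.996), Cd3e (-0.0295), Il1rl1 (-0.60), Tbx21 (-0.0206), Bcl2 (-0.0663), Prdm1 (-0.0266), Foxp3 (-0.11), Id2 (-0.17) and Bach1 (-1.25). Among genes named in the report for other comparisons, signs also turned in tumor Tbet-KO over tumor ST2-KO for Bcl2 (-0.20), Mafg (-0.67), Prdm1 (-0.51), Foxp3 (-1.10), Rnf43 (-0.34), Tle3 (-0.84), Batf (-0.15) and Ikzf2 (-1.11), in tumor Tbet-KO over tumor WT for Lrp6 (-0.03), in tumor ST2-KO over tumor WT for Prdm1 (0.24), Foxp3 (0.41), Bcl2 (0.36), Id2 (0.0043), Lgr6 (0.96), Tle3 (0.95), Ikzf2 (0.53), Bhlhe40 (0.13) and Runx3 (0.45), and in tumor WT over no tumor WT for Mafg (-1.08), Bhlhe40 (-0.22) and Runx3 (-0.60). By its construction this scale holds the T lineage genes level, and most genes then follow the opposite shift. A log2 fold change beyond 1 left 1716, 1010, 700 and 1904 genes over all, 13, 6, 2 and 17 list genes, and 6 of the 10 genes in tumor ST2-KO over tumor WT.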
